A study of Mus musculus with 12 samples.

Results

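H9c2 cells that received doxorubicin together with magnesium hexacyanoferrate nanocatalysts for 6 h (D_MgHCF, 3 samples) were compared with untreated H9c2 cells of the same 6 h (Unt, 3 samples). The members are these 6 of the 12 mRNA-seq samples in the series, taken by their treatment label, and the 11810 of 54345 genes with an FPKM of at least 1 in 3 or more of the 6 libraries. FPKM counts the fragments of a gene relative to its length and to the size of the library. H9c2, labelled H9c2(2-1), is a line of cardiomyoblasts described in the study's methods as rat, although the sample labels name the mouse and the deposited genes are mouse Ensembl genes with GRCm38 coordinates. How reads of rat cells were assigned to mouse genes is not given in the sources used here. Both groups carry the genotype label WT and the cell type label myoblast, and every D_MgHCF sample received doxorubicin. No sample received the nanocatalysts alone, so the parts of doxorubicin and of the nanocatalysts in a difference from Unt cannot be told apart here. The doses in the sequenced cells are not given in the sources used here. Nothing in the labels says that the replicates were separate cultures, and p-values then measure the spread between samples that may be technical.

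Doxorubicin (DOX) is an anthracycline that intercalates into DNA and traps topoisomerase II on broken strands, and its toxicity to heart muscle is linked to iron and oxidative damage. Breaks in DNA activate the transcription factor p53, which raises genes of cell cycle arrest, repair and apoptosis. Magnesium hexacyanoferrate (MgHCF) is a Prussian blue analogue made to take up ferrous iron and to act on reactive oxygen species. The comparison asks which functions differed from untreated cells when the nanocatalysts were given with DOX.

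The 6 libraries had 16626514 to 18509705 reads on genes, as recovered from the FPKM. More genes were detected in D_MgHCF: 20660, 20160 and 20362 genes had reads in Unt replicates 1 to 3, and 25456, 25213 and 23368 in D_MgHCF replicates 1 to 3. The groups did not overlap (two-sided exact permutation test, p = 0.1, the smallest p that 3 against 3 samples allow). The Unt libraries lay close together, with Pearson correlations of log2(FPKM + 1) of 0.989 to 0.993 across genes. The D_MgHCF libraries did not: replicates 1 and 2 had a correlation of 0.976, replicates 2 and 3 of 0.933 and replicates 1 and 3 of 0.897. D_MgHCF replicate 3 was also the nearest of the 3 to the Unt libraries, with correlations of 0.879 to 0.889, compared with 0.817 to 0.824 for replicate 1. The median SD of a gene was 0.0877 on the log2 scale in Unt and 0.298 in D_MgHCF. Counts without single libraries are therefore given beside the gene lists where they differ by more than 1.5 times.

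With limma on log2(FPKM + 1) and Benjamini-Hochberg adjusted p values under 0.05, 2557 genes exceeded their Unt level in D_MgHCF and 3225 were below it. These are 21.7% and 27.3% of the genes tested, against which every count of a gene list below should be read. A change of at least 2-fold was found for 1169 of the higher and 1258 of the lower genes. For 2539 of the higher and 3214 of the lower genes the 6 libraries did not overlap between the groups, whereas over all genes tested every D_MgHCF library lay above every Unt library for 26.6% and below for 33.8%. The median log2 fold change of all genes tested was -0.09. In such bulk libraries a lower level from fewer cells of one kind and from less RNA per cell cannot be told apart. The counts fell to 1679 higher and 2149 lower without Unt replicate 1 and to 1645 and 2048 without Unt replicate 2. Without D_MgHCF replicate 3 they were 3706 and 4484, and 99.8% of the genes called higher and 99.8% of those called lower were called again. Below, "rose" and "fell" are used only of genes with an adjusted p under 0.05, and FPKM values are given in the order of replicates 1, 2 and 3. The losses of a call named beside a gene refer to leaving out a library and to other scalings and models. Further losses, with other filters or with a replicate block, are given at the end.

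**Figure D1:**
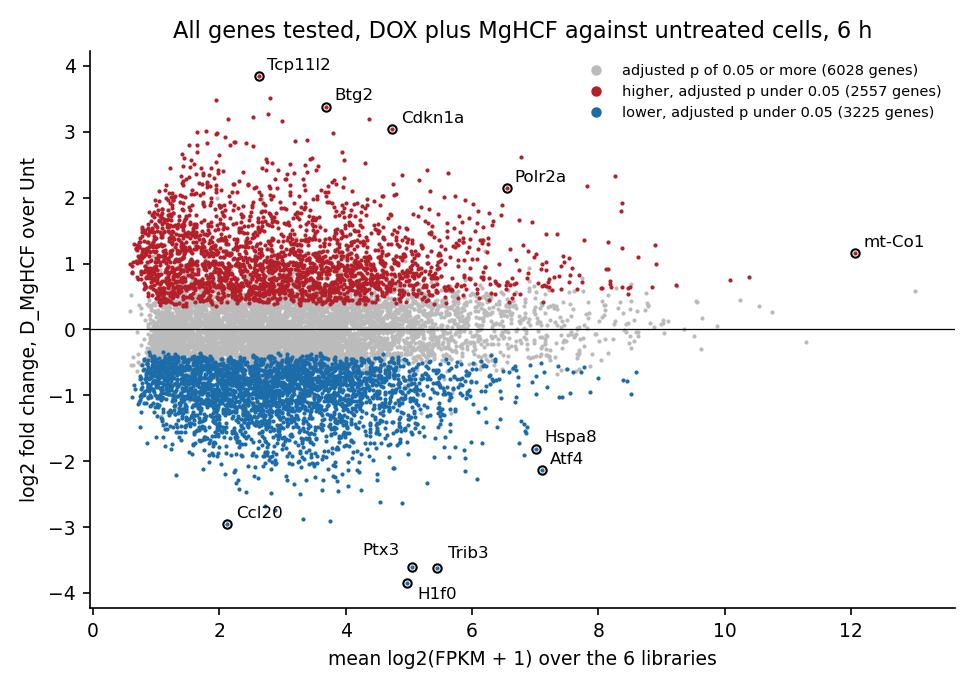
Log2 fold change of D_MgHCF over Unt (vertical axis) against the mean log2(FPKM + 1) of the 6 libraries (horizontal axis) for the 11810 genes tested, with genes called higher in red, called lower in blue and not called in grey. The 2557 genes called higher and the 3225 called lower spread over all levels, and H1f0, Ptx3 and Trib3 lie below -3.

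Of the genes ranked by the fold change on the log2(FPKM + 1) scale, protein-coding, without overlap between the groups and with a mean of at least 5 FPKM in the group with more, Tcp11l2 rose most, at 0.636, 0.510 and 0.750 FPKM in Unt and 59.9, 41.6 and 3.96 in D_MgHCF, a log2 fold change of 3.85 ± 0.84 (SE, adjusted p = 0.0082 in limma). All D_MgHCF libraries were above Unt, but replicate 3 stayed far below the other two. Eda2r, a receptor of the tumour necrosis factor family induced by p53, rose from 1.31, 0.878 and 1.02 to 16.0, 24.3 and 29.9 FPKM. Foxj1, the transcription factor of motile cilia, rose from 0.152, 0.175 and 0.125 to 7.59, 10.4 and 20.5 FPKM. In these genes replicate 3 was the highest of the D_MgHCF libraries. Btg2, an antiproliferative p53 target, was at 3.01, 2.997 and 2.92 FPKM in Unt and 26.2, 48.3 and 52.1 in D_MgHCF (log2 fold change 3.38 ± 0.25, adjusted p = 0.000373). Oas1c, of the oligoadenylate synthetase family induced by interferon, rose from 1.16, 1.27 and 1.17 to 23.3, 19.3 and 18.5 FPKM. It has a near-identical copy, Oas1e, with which it may share reads. Hap1, which binds huntingtin, rose from 5.71, 5.96 and 5.87 to 56.1, 65.7 and 63.5 FPKM, with all 3 D_MgHCF libraries alike. Trp53inp1 (log2 fold change 3.22), Sfn (3.17), which has a near-identical copy, and Cdkn1a (3.04) are p53 targets as well. The remaining genes among the 12 largest rises were Fam46c (3.01), the erythroid transcription factor Klf1 (2.999) and the amino acid transporter Slc43a2 (2.99), and for each of these replicate 3 was the lowest of the D_MgHCF libraries. Klf1 was not called without D_MgHCF replicate 2 (adjusted p = 0.0579). Tcp11l2, Foxj1, Fam46c, Klf1 and Slc43a2 were under 1 FPKM in every Unt library. They passed the filter through their D_MgHCF libraries alone, so the filter itself favoured a rise in them. The same holds for Bmf, Egr3, Nr4a3, Gch1, Psmb8 and Hist2h2be below.

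By the same ranking the largest fall was that of H1f0, a linker histone, at 120.5, 115 and 118 FPKM in Unt and 3.06, 4.36 and 25.1 in D_MgHCF (log2 fold change -3.84 ± 0.63, adjusted p = 0.00259 in limma). Again replicate 3 moved least, although it remained far below the Unt libraries. Trib3, a pseudokinase induced by ATF4 that feeds back on it, was at 143, 149 and 168 FPKM in Unt and 9.41, 9.04 and 17.5 in D_MgHCF. Ptx3, a secreted pattern recognition protein, was at 121, 115 and 108 FPKM in Unt and 11.8, 8.48 and 5.99 in D_MgHCF. Ptx3 thus fell most in replicate 3. Ccl20, a chemokine, fell by 2.96 on the log2 scale with the 3 D_MgHCF libraries at 0.487 to 0.719 FPKM. Ccl20 passed the filter through its Unt libraries alone, which favoured a fall. The rest included the tRNA synthetase subunit Farsb (log2 fold change -2.90), the ribonucleotide reductase subunit Rrm1 (-2.88), the repair factors Fignl1 (-2.69) and Nbn (-2.46), the splicing factor Srsf6 (-2.62), the RNase P subunit Rpp14 (-2.49) and the arginine transporter Slc7a1 (-2.45). Also among these falls was Wisp2 (-2.63), a matrix signalling protein of the CCN family.

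**Figure D2:**
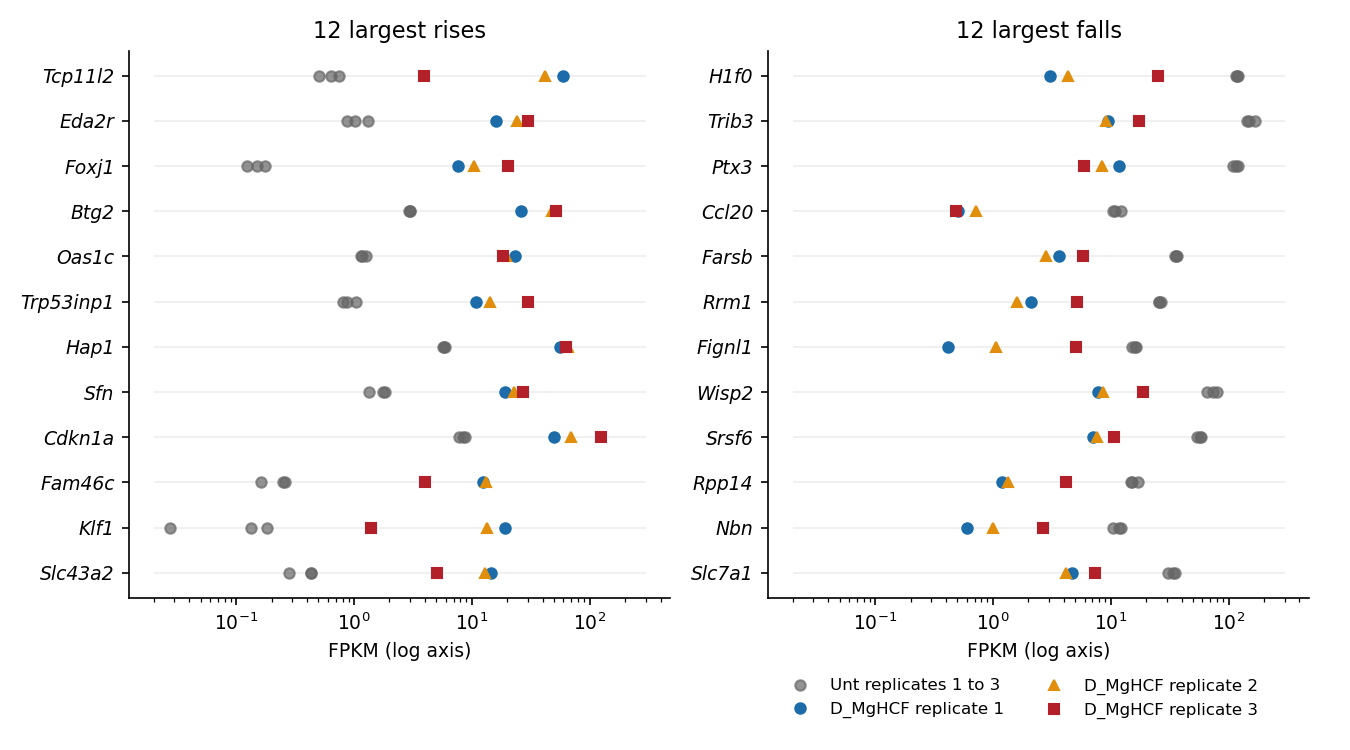
FPKM on a log axis of the 12 largest rises (left) and the 12 largest falls (right), with the 3 Unt libraries as grey circles and D_MgHCF replicates 1, 2 and 3 as blue circles, orange triangles and red squares. No Unt library overlaps a D_MgHCF library in these 24 genes, which the choice of genes required, and replicate 3 lies nearest to Unt in 5 of the 12 rises and 10 of the 12 falls.

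Genes of the p53 response were partly raised. Of 29 p53 targets tested, 13 rose, 1 fell and 15 did not pass the test, and their median log2 fold change was 0.41, compared with 0.64 without D_MgHCF replicate 1 and 0.69 without replicate 3. The medians of the single D_MgHCF libraries were 0.62, 0.60 and 0.63. Replicate 3 lay on the same side of Unt as the mean of the other two for 20 of the 29 genes, so single members differed more between replicates than the medians. Cdkn1a, which encodes the cell cycle inhibitor p21, was at 8.37, 7.81 and 8.76 FPKM in Unt and 50.02, 69.4 and 124 in D_MgHCF. Ccng1, a cyclin induced by p53, was at 13.8, 12.3 and 10.8 FPKM in Unt and 41.0, 70.8 and 99.2 in D_MgHCF (log2 fold change 2.34). Both were highest in replicate 3 and lowest in replicate 1 of the D_MgHCF group. Other p53 targets parted by replicate. Mdm2, the ubiquitin ligase that degrades p53, was at 9.74, 9.93 and 9.50 FPKM in Unt and 5.42, 9.58 and 25.5 in D_MgHCF, and was not called (log2 fold change 0.18, adjusted p = 0.763). Phlda3, which restrains the kinase Akt, was at 17.3, 19.1 and 19.8 FPKM in Unt and 10.7, 20.5 and 64.5 in D_MgHCF. Bbc3, which encodes the pro-apoptotic PUMA, was at 7.04, 6.84 and 7.05 in Unt and 3.07, 3.40 and 9.25 in D_MgHCF. For these 3 genes replicate 3 was above all Unt libraries and replicate 1 below all of them. Without D_MgHCF replicate 3, 4 p53 targets were lower. The p53 target that fell with all libraries was Gadd45a, a stress sensor also induced by ATF4, from 38.4, 36.3 and 34.0 to 6.80, 6.48 and 5.36 FPKM (log2 fold change -2.37, adjusted p = 0.000282).

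Among 28 genes of the BCL2 family and the caspases, 11 rose and 6 fell. The largest rises were those of BH3-only genes, which promote apoptosis. Bcl2l11 (BIM) was at 2.25, 2.27 and 2.45 FPKM in Unt and 17.0, 16.1 and 9.34 in D_MgHCF. Bmf was at 0.303, 0.207 and 0.249 in Unt and 3.33, 3.21 and 3.002 in D_MgHCF. Bad, which promotes apoptosis, rose by 1.52 on the log2 scale, whereas Bcl2, which holds back apoptosis, fell by 0.79. Bcl2l1 (BCL-XL), which also holds back apoptosis, rose by 0.62. The largest falls were those of Casp12 (-0.96), a caspase linked to the endoplasmic reticulum, and Birc6 (-0.91), an inhibitor of apoptosis. The list therefore held genes of both sides of apoptosis in each direction. Leaving out a library changed the count of higher genes to 6 without Unt replicate 2 and that of lower genes to 3 without D_MgHCF replicate 2 or Unt replicate 2 or 3.

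In the integrated stress response, most listed genes fell in D_MgHCF. In this pathway stress kinases slow translation, and the transcription factor ATF4 then raises genes of amino acid synthesis, amino acid import and tRNA charging. Of 28 genes of the list tested, 19 fell and 2 rose, with a median log2 fold change of -1.13 compared with -0.09 over all genes tested. Atf4 itself was at 271, 294 and 295 FPKM in Unt and 31.4, 78.3 and 109 in D_MgHCF (log2 fold change -2.13 ± 0.41, adjusted p = 0.00501). Asns, which makes asparagine, was at 180.4, 196 and 206 FPKM in Unt and 80.7, 55.7 and 63.8 in D_MgHCF. Slc7a11, the cystine importer, fell from 5.99, 5.38 and 5.11 to 0.721, 0.649 and 1.66 FPKM. In each of these genes all D_MgHCF libraries were below all Unt libraries. Chac1, which breaks down glutathione, was at 77.5, 82.0 and 90.6 FPKM in Unt and 12.6, 21.4 and 64.0 in D_MgHCF, with replicate 3 close to the Unt libraries, and its call was lost without D_MgHCF replicate 1 or 2 or any 1 Unt replicate (adjusted p = 0.0675 to 0.114). The hormone gene Fgf21 (0.451, 1.07 and 5.27 FPKM in D_MgHCF, 8.15, 8.69 and 7.75 in Unt) and the transcription factor Cebpb (3.51, 6.27 and 31.9 in D_MgHCF, 44.6, 53.3 and 49.0 in Unt) had the same order of replicates. The call of Fgf21 was lost without D_MgHCF replicate 2 or any 1 Unt replicate (adjusted p = 0.0539 to 0.0821) and that of Cebpb without D_MgHCF replicate 1 or 2 or any 1 Unt replicate (adjusted p = 0.0563 to 0.0946). The 2 members that rose were Atf3 (0.85) and Gdf15 (0.83), which p53 also induces, and Gdf15 was not called without Unt replicate 1 or 2 (adjusted p = 0.0561 to 0.0581) and with TPM scaling (adjusted p = 0.0607) and in a fit of all 12 libraries (adjusted p = 0.0536). The count of lower genes was 10 without D_MgHCF replicate 2, 11 without any 1 Unt replicate, 9 with no filter on low values and 13 with the filter on FPKM above 0.

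Aminoacyl-tRNA synthetases, which load amino acids onto tRNAs and of which many are ATF4 targets, had the lowest median of the lists. Of 20 cytosolic synthetase genes tested, 17 fell and 1, Qars, rose, and the median log2 fold change was -1.49. Leaving out any library gave 14 to 17 lower genes. Farsb was at 35.6, 36.8 and 35.3 FPKM in Unt and 3.63, 2.82 and 5.78 in D_MgHCF. Iars, which has a near-identical copy in the mouse genome, was at 83.3, 86.0 and 90.3 in Unt and 10.1, 13.7 and 31.5 in D_MgHCF. Sars was at 101, 110.4 and 119 in Unt and 26.5, 23.8 and 43.1 in D_MgHCF. Replicates 1 and 2 were alike in these 3 genes and replicate 3 was nearer to Unt, without reaching it. Qars was at 17.7, 18.6 and 20.6 FPKM in Unt and 29.6, 29.2 and 24.4 in D_MgHCF, and its call was lost without D_MgHCF replicate 2 or Unt replicate 1 or 2 (adjusted p = 0.0625 to 0.0927) and with TPM scaling (adjusted p = 0.0575).

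Promoters of these genes are shown because a motif of ATF4 with C/EBP partners lies in several of them. The letters TGATGNAA, or TTNCATCA on the other strand, were searched on both strands from 250 bases before to 50 bases after the start of each gene in the RefSeq promoter table (GRCm38.p6, mouse sequence). They occurred in 8 of 25 genes of the ATF4 list with a promoter sequence (32%) and in 5 of 12 synthetase genes (41.7%), compared with 2.54% of 8358 genes tested and 2.9% of 2382 genes called lower. A match describes the letters alone. Trib3 (chr2:152344011-152344310, minus strand), Iars (chr13:49681880-49682179, plus strand), Chac1 (chr2:119350992-119351291, plus strand) and Asns (chr6:7693160-7693459, minus strand) are printed below, each on its own strand from 5′ to 3′ with the match in capitals.
Trib3: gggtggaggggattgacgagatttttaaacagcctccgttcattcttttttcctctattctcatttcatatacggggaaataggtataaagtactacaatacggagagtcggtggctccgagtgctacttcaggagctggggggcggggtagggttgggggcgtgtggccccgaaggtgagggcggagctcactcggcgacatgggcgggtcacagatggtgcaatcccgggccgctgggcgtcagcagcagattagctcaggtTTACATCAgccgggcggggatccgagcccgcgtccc
Iars: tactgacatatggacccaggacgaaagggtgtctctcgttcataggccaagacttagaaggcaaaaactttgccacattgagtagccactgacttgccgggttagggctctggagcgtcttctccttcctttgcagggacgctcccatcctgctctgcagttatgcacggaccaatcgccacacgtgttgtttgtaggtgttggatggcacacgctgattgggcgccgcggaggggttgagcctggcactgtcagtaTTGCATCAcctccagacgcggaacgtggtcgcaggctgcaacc
Chac1: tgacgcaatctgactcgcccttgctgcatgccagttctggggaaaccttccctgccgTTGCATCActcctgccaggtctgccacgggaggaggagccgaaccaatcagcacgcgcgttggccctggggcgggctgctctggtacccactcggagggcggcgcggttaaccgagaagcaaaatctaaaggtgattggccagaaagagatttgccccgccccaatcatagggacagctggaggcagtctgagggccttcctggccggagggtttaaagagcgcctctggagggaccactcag
Asns: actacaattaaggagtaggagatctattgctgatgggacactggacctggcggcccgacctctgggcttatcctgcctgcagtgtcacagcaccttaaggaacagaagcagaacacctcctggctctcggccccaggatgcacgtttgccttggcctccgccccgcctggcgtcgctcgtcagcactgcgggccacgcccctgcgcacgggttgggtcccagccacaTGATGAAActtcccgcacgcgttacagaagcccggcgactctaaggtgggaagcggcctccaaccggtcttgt
These promoters belong to genes with log2 fold changes of -3.63 (Trib3), -2.33 (Iars), -1.64 (Chac1) and -1.54 (Asns), and Chac1 is the member in which replicate 3 stood nearest to Unt.

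Many genes in further parts of the protein synthesis machinery fell, while the count for the ribosomal proteins themselves depended on single libraries and on the scaling. RNA polymerase I transcribes ribosomal RNA, which nucleolar proteins then modify and assemble. Of 37 genes of this list tested, 23 fell and 1 rose (median log2 fold change -0.89). Polr1a, the largest subunit of RNA polymerase I, was at 11.01, 11.1 and 12.8 FPKM in Unt and 3.08, 1.89 and 2.47 in D_MgHCF. Nop58, a core protein of snoRNA particles, was at 19.4, 18.2 and 14.9 in Unt and 2.54, 4.26 and 6.17 in D_MgHCF. The groups did not overlap in either gene. The member that rose was Rrp9, a U3 snoRNA-binding protein (0.86), and 2 rose without D_MgHCF replicate 1 or 3, in a fit of all 12 libraries and with voom on the recovered reads. Of 45 translation initiation and elongation factors, 21 fell and 1 rose. Eif4b, a helper of the helicase eIF4A, was at 121, 123 and 126 FPKM in Unt and 20.1, 21.6 and 45.6 in D_MgHCF, and Eif4ebp1, a repressor of cap-dependent translation and an ATF4 target, fell by 1.71 on the log2 scale. Eif4ebp2 rose by 0.74, a call that was lost without Unt replicate 2 (adjusted p = 0.0515) and with TPM scaling (adjusted p = 0.0683), and without D_MgHCF replicate 3 the list had 2 higher genes. Of 82 genes for cytosolic ribosomal proteins, 3 fell (Rpl7l1, Rpl4 and Rpl13a) and 1 rose. The lower genes numbered 1 without D_MgHCF replicate 2 or any 1 Unt replicate, 13 without D_MgHCF replicate 1, 16 with TPM scaling, 29 with quantile normalization, 6 in a fit of all 12 libraries and 1 with voom on the recovered reads. The higher genes numbered 16 without D_MgHCF replicate 3, 2 with TPM scaling or quantile normalization and 3 in a fit of all 12 libraries, with voom or with FPKM over the summed reads. The call of Rpl4, which has a near-identical copy, was lost without D_MgHCF replicate 2 or 3 or any 1 Unt replicate (adjusted p = 0.0596 to 0.156), with voom (adjusted p = 0.0672) and with the other filters (adjusted p = 0.0511 to 0.175). The medians of the single D_MgHCF libraries were 0.40, 0.02 and -0.47, so that replicates 1 and 3 stood on opposite sides of Unt. Their summed FPKM was 18910, 20120 and 20620 in Unt and 27900, 20800 and 15040 in D_MgHCF.

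Many genes of DNA repair and replication fell. Of 34 genes of damage signalling and strand break repair, 19 fell and 0 rose in limma (0 also at an unadjusted p under 0.05), with a median log2 fold change of -0.65. The lower genes numbered 12 without Unt replicate 1, and 2 were higher without D_MgHCF replicate 3. Nbn, a sensor of double-strand breaks, was at 12.3, 11.8 and 10.502 FPKM in Unt and 0.601, 1.01 and 2.64 in D_MgHCF. Rif1, which protects broken ends, was at 14.2, 10.9 and 6.78 in Unt and 1.02, 1.70 and 2.45 in D_MgHCF. Top2a, the topoisomerase that DOX traps, was at 68.9, 59.8 and 56.2 FPKM in Unt and 11.5, 22.1 and 37.8 in D_MgHCF. No library of the groups overlapped in these genes, although the call of Top2a was lost without D_MgHCF replicate 2 or Unt replicate 1 (adjusted p = 0.0526 to 0.0539). Parp1, a nick sensor, was at 30.5, 31.7 and 33.9 FPKM in Unt and 52.0, 38.3 and 37.1 in D_MgHCF and was not called (adjusted p = 0.0969). Of 44 genes of DNA replication and nucleotide synthesis, 19 fell, led by Rrm1 with 25.7, 25.9 and 26.8 FPKM in Unt and 2.10, 1.62 and 5.14 in D_MgHCF and by Cdt1, which licenses origins, with 48.2, 49.3 and 54.3 in Unt and 9.34, 11.6 and 32.4 in D_MgHCF. The 2 members that rose, Orc1 (0.77) and the G1 cyclin Ccne1 (0.60), both depended on single libraries, and the higher genes numbered 0 without D_MgHCF replicate 2 or any 1 Unt replicate, 1 without D_MgHCF replicate 1, 7 without D_MgHCF replicate 3, 1 with TPM scaling and 4 in a fit of all 12 libraries or with voom. The call of Orc1 was lost without D_MgHCF replicate 1 or 2 or any 1 Unt replicate (adjusted p = 0.0848 to 0.118) and that of Ccne1 without D_MgHCF replicate 1 or 2 or any 1 Unt replicate (adjusted p = 0.0607 to 0.151) and with FPKM over the summed reads (adjusted p = 0.0536) and with TPM scaling (adjusted p = 0.128). The call of Cdt1 was lost without D_MgHCF replicate 2 (adjusted p = 0.0605). Of 35 mitosis genes, 13 fell, among them the cytokinesis genes Anln (-1.75) and Ect2 (-1.57), and the kinesin Cenpe rose (1.36), a call lost without D_MgHCF replicate 1 or 2 or Unt replicate 3 (adjusted p = 0.0518 to 0.0716). Without D_MgHCF replicate 3, 6 mitosis genes were higher, and 2 in a fit of all 12 libraries.

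Of 36 splicing factors tested, 24 fell and 0 rose in limma (1 at an unadjusted p under 0.05), with a median log2 fold change of -0.77 and 19 to 28 lower genes when 1 library was left out. Without D_MgHCF replicate 3, 3 were higher. Srsf6 was at 54.3, 58.4 and 57.3 FPKM in Unt and 7.12, 7.68 and 10.6 in D_MgHCF. Hnrnpd, an RNA-binding protein that also acts on mRNA decay, was at 18.8, 19.6 and 20.2 in Unt and 2.01, 2.14 and 5.91 in D_MgHCF. The RNA polymerase II list went both ways, with 7 of 32 genes higher and 8 lower. Polr2a, the largest subunit, was at 41.3, 43.6 and 45.7 FPKM in Unt and 360.1, 247 and 83.2 in D_MgHCF. Hexim1, the protein that with 7SK RNA holds the elongation factor P-TEFb inactive, was at 12.0, 12.5 and 12.7 in Unt and 93.9, 73.2 and 22.8 in D_MgHCF. In both genes replicate 3 rose least. The subunit gene Polr2i (-1.75) fell. Hexim1 was not called without D_MgHCF replicate 2 (adjusted p = 0.0503). The counts were 3 without D_MgHCF replicate 2, 4 without Unt replicate 1 or 2 and 11 without D_MgHCF replicate 3 for higher genes and 5 without D_MgHCF replicate 2 or Unt replicate 1 or 2 and 14 without D_MgHCF replicate 3 for lower genes. Of 228 tested Zfp genes, whose products are mostly DNA-binding zinc finger proteins, 92 fell and 25 rose, and the counts were 61 without Unt replicate 2 for lower genes and 13 without D_MgHCF replicate 2, 14 without Unt replicate 1 or 2, 15 without Unt replicate 3 and 50 without D_MgHCF replicate 3 for higher genes.

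Immediate early genes, which respond to signals within minutes and need no new protein, were among the lists with most rises: 15 of 27 rose and 6 fell, and the median log2 fold change was 0.92. Fos was at 1.61, 1.56 and 1.46 FPKM in Unt and 16.6, 15.0 and 4.69 in D_MgHCF, Egr3 at 0.352, 0.180 and 0.167 in Unt and 9.94, 9.38 and 1.76 in D_MgHCF, and Nr4a3, an orphan nuclear receptor, at 0.173, 0.195 and 0.144 in Unt and 6.41, 5.95 and 2.97 in D_MgHCF. All libraries of D_MgHCF were above Unt in these genes, with replicate 3 lowest. Egr1 parted by replicate, at 19.5, 19.7 and 19.5 FPKM in Unt and 37.1, 25.9 and 10.1 in D_MgHCF. Myc, a driver of growth and ribosome synthesis, fell from 62.8, 72.1 and 71.3 to 44.9, 29.5 and 17.1 FPKM and Ier2 from 61.4, 70.3 and 64.2 to 27.5, 28.8 and 28.0. The call of Myc was lost without D_MgHCF replicate 2 or Unt replicate 3 (adjusted p = 0.0519 to 0.0521). The count of lower genes was 2 without Unt replicate 3 and 3 without Unt replicate 1. Of 21 genes of MAPK feedback and ErbB signalling, 8 rose, led by the ERK phosphatases Dusp4 (2.47, 2.04 and 2.57 FPKM in Unt, 33.4, 22.1 and 4.42 in D_MgHCF) and Dusp5 (3.12, 3.95 and 3.96 in Unt and 24.1, 28.5 and 6.44 in D_MgHCF), and 5 fell, led by the Ras-ERK inhibitors Spred1 (-1.04) and Spred2 (-0.70). The call of Dusp4 was lost without D_MgHCF replicate 2 or any 1 Unt replicate (adjusted p = 0.0518 to 0.0808) and that of Dusp5 without D_MgHCF replicate 2 (adjusted p = 0.0583), and the counts were 5 without D_MgHCF replicate 2 or Unt replicate 1 or 2 for higher genes and 2 without D_MgHCF replicate 2 or any 1 Unt replicate and 3 without D_MgHCF replicate 1 for lower genes. Etv5, an ERK-induced transcription factor, was at 5.01, 5.71 and 5.67 FPKM in Unt and 16.1, 19.2 and 2.13 in D_MgHCF. It was the one protein-coding gene tested in which 1 D_MgHCF library lay at least 1 below and the other 2 at least 1 above the Unt mean on the log2 scale, or the reverse, and it was not called (adjusted p = 0.416 in limma).

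Inflammatory genes differed between the D_MgHCF replicates. Of 22 genes of the NF-kB, cytokine and chemokine list, 8 fell, led by Ccl20 (12.2, 10.9 and 10.51 FPKM in Unt, 0.502, 0.719 and 0.487 in D_MgHCF) and Cxcl5 (4.78, 4.82 and 4.04 in Unt and 1.15, 0.675 and 0.219 in D_MgHCF), and 4 rose, led by the cytokine Lif (1.18) and the inhibitor Nfkbie (0.89). The call of Lif was lost without D_MgHCF replicate 2 or Unt replicate 1 or 2 (adjusted p = 0.0501 to 0.0634), that of Nfkbie without D_MgHCF replicate 2 or any 1 Unt replicate (adjusted p = 0.0592 to 0.0859) and with TPM scaling (adjusted p = 0.0993), and the count of higher genes was 1 without Unt replicate 1 or 2, 2 without D_MgHCF replicate 2, 9 without D_MgHCF replicate 3 and 2 with TPM scaling. The median log2 fold change of the list was -0.04, and its medians in the single D_MgHCF libraries were 0.37, -0.01 and -0.46. Ptgs2, the inducible cyclooxygenase, was at 5.22, 4.68 and 4.34 FPKM in Unt and 34.5, 24.0 and 2.82 in D_MgHCF, and Cxcl1 at 14.7, 16.2 and 14.1 in Unt and 23.2, 16.2 and 2.37 in D_MgHCF. For both genes replicate 3 was below all Unt libraries, replicate 1 was above all of them, and no call was made. Of 27 interferon response genes, 7 rose and 2 fell, but the medians of the single D_MgHCF libraries were -0.29, 0.28 and 1.13, so the median member lay below Unt in replicate 1 and highest in replicate 3. Ifit3, an antiviral effector, was at 4.81, 6.89 and 6.21 FPKM in Unt and 6.19, 15.9 and 73.1 in D_MgHCF and was not called (adjusted p = 0.111). Its near-identical copy Ifit3b, with which it may share reads, was at 1.87, 1.92 and 2.21 in Unt and 3.903, 10.1 and 36.7 in D_MgHCF, and its call was lost without D_MgHCF replicate 2 or any 1 Unt replicate (adjusted p = 0.0731 to 0.0847) and with TPM scaling (adjusted p = 0.0556). Irf7, the regulator of type I interferon, was at 17.4, 18.4 and 19.5 FPKM in Unt and 92.9, 77.1 and 77.6 in D_MgHCF, and Parp14 at 1.11, 1.10 and 1.01 in Unt and 4.08, 5.35 and 7.19 in D_MgHCF, so these members were above Unt in every replicate. The members that fell were Irf9 (-1.12) and Xaf1 (-0.85), the latter not called without D_MgHCF replicate 1 or 2 or any 1 Unt replicate (adjusted p = 0.0707 to 0.109). The count of higher interferon genes was 4 without any 1 Unt replicate, 11 without D_MgHCF replicate 1 and 4 with TPM scaling, and the median of all 27 without D_MgHCF replicate 3 was -0.01. Lower interferon genes numbered 1 without D_MgHCF replicate 1 or 2 or any 1 Unt replicate and 6 without D_MgHCF replicate 3.

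Genes of the TGF-beta, BMP and Hippo pathways changed singly, with 4 of 28 higher and 7 lower. Id3, a BMP target that blocks differentiation factors, was at 74.5, 83.8 and 86.0 in Unt and 16.2, 20.2 and 26.4 in D_MgHCF, and Amotl2, a YAP target, at 52.2, 55.5 and 58.3 in Unt and 15.9, 12.8 and 28.9 in D_MgHCF. The count of higher genes was 10 without D_MgHCF replicate 3. Of 19 matrix proteases and inhibitors, 9 rose and 0 fell in limma (0 also at an unadjusted p under 0.05), and the count was 5 without Unt replicate 2 and 14 without D_MgHCF replicate 3. Without D_MgHCF replicate 1, 1 of them was lower. Plat, the tissue plasminogen activator, was at 5.57, 6.02 and 5.57 FPKM in Unt and 42.1, 33.6 and 19.1 in D_MgHCF. Of 27 collagens and matrix proteins, 3 rose and 2 fell, and the counts were 1 without any 1 Unt replicate, 11 without D_MgHCF replicate 3, 5 with quantile normalization, 5 in a fit of all 12 libraries, 5 with voom on the recovered reads and 5 with FPKM over the summed reads for higher genes and 1 without D_MgHCF replicate 2 or any 1 Unt replicate and 4 without D_MgHCF replicate 1 for lower genes. Col1a2 was at 25.1, 28.8 and 29.5 FPKM in Unt and 6.70, 4.20 and 2.73 in D_MgHCF, whereas Col1a1, whose product joins it in type I collagen, was at 19.3, 19.7 and 21.0 in Unt and 32.3, 20.1 and 18.8 in D_MgHCF and was not called (adjusted p = 0.469). Of 28 genes of the actin cytoskeleton, the intermediate filament gene Vim included, 7 fell and 4 rose. Vim was at 219.96, 242 and 268 FPKM in Unt and 157, 114 and 93.4 in D_MgHCF. Cfl1, which severs actin filaments and has a near-identical copy, was at 318, 345 and 366 in Unt and 874, 742 and 486 in D_MgHCF. The call of Cfl1 was lost without D_MgHCF replicate 2 or Unt replicate 1 or 2 (adjusted p = 0.0553 to 0.063). The counts were 2 without Unt replicate 2 or 3 for lower genes and 1 without any 1 Unt replicate, 2 without D_MgHCF replicate 1 or 2 and 7 without D_MgHCF replicate 3 for higher genes.

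Protein folding genes changed in both directions. In the endoplasmic reticulum, 11 of 23 genes rose and 3 fell (median log2 fold change 0.52). The medians of the single D_MgHCF libraries were 0.80, 0.62 and 0.13, and the list's median was 0.27 without D_MgHCF replicate 1. Creld2, a folding helper, was at 25.2, 26.0 and 29.5 FPKM in Unt and 67.3, 76.8 and 66.6 in D_MgHCF. Herpud1, a degradation factor that ATF4 also induces, fell from 41.7, 47.3 and 48.7 to 8.53, 12.3 and 19.9. Dnajb9 was at 5.83, 5.50 and 5.14 in Unt and 28.1, 32.3 and 6.39 in D_MgHCF, and its call was lost without D_MgHCF replicate 1 or 2 or any 1 Unt replicate (adjusted p = 0.0894 to 0.147). Higher genes of this list numbered 7 without Unt replicate 1 or 2, and lower genes 1 without any 1 Unt replicate. Of 28 heat shock genes, 8 rose and 8 fell, shares near those over all genes tested. Hspa8, the constitutive chaperone HSC70, was at 229, 241 and 254 FPKM in Unt and 72.0, 61.6 and 71.1 in D_MgHCF, with all 3 replicates alike. The small heat shock gene Hspb1 was at 5.90, 4.82 and 5.60 in Unt and 21.7, 22.3 and 32.8 in D_MgHCF, whereas the inducible Hspa1b, which has the near-identical copy Hspa1a, was at 3.37, 3.08 and 2.80 in Unt and 41.5, 28.3 and 4.20 in D_MgHCF. The latter was not called without D_MgHCF replicate 1 or 2 or any 1 Unt replicate (adjusted p = 0.0777 to 0.131), and Hspa4, which fell by 1.59, was not called without D_MgHCF replicate 1 or 2 or any 1 Unt replicate (adjusted p = 0.0583 to 0.094). The counts of heat shock genes were 3 without Unt replicate 2, 4 without Unt replicate 1 and 5 without Unt replicate 3 for higher genes and 4 without any 1 Unt replicate and 5 without D_MgHCF replicate 2 for lower genes.

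The lysosome list had 21 of 34 genes higher and 0 lower in limma (0 also at an unadjusted p under 0.05), a median log2 fold change of 0.68, and medians of 0.97, 0.56 and 0.59 in the single D_MgHCF libraries. Ctsl, a cathepsin with near-identical copies in the mouse genome, was at 41.7, 41.6 and 39.4 FPKM in Unt and 211, 177 and 76.0 in D_MgHCF. Neu1, a sialidase, was at 6.07, 5.66 and 5.83 in Unt and 15.9, 18.03 and 20.3 in D_MgHCF. Higher lysosome genes numbered 13 without Unt replicate 1 or 2, and 1 was lower without D_MgHCF replicate 3. Of 35 autophagy genes, 14 rose and 5 fell. Map1lc3b, which marks autophagosomes, was at 14.4, 15.0 and 15.9 FPKM in Unt and 39.8, 41.3 and 47.9 in D_MgHCF, and the receptor gene Calcoco1 at 8.399, 8.35 and 8.88 in Unt and 34.8, 27.3 and 22.2 in D_MgHCF. Atg4c, a protease that processes LC3 proteins, fell by 1.26. The counts of autophagy genes were 7 without Unt replicate 1 or 2, 8 without D_MgHCF replicate 2 or Unt replicate 3 and 8 with TPM scaling for higher genes and 2 without Unt replicate 1, 3 without D_MgHCF replicate 2 or Unt replicate 2 and 12 without D_MgHCF replicate 3 for lower genes. Of 36 proteasome subunits, 12 fell and 4 rose, and the share of lower genes was near that over all genes tested. Psmc2, of the regulatory particle, was at 28.9, 28.2 and 31.7 FPKM in Unt and 6.42, 9.19 and 16.0 in D_MgHCF, and Psmb2 fell by 1.31. The 2 largest rises in the list, Psmb9 (1.53) and Psmb8 (0.97), are the interferon-inducible subunits of the immunoproteasome. The counts of proteasome genes were 7 without Unt replicate 2 and 20 without D_MgHCF replicate 3 for lower genes and 2 without Unt replicate 1 or 2, 8 without D_MgHCF replicate 3 and 2 with TPM scaling for higher genes.

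Genes of NRF2, the regulator of antioxidant defence, rose in part: 9 of 24 rose and 3 fell (median log2 fold change 0.39). Gsta4, a glutathione transferase, was at 21.3, 21.5 and 24.9 FPKM in Unt and 90.0, 97.1 and 94.9 in D_MgHCF, and Srxn1, which repairs peroxiredoxins, at 8.92, 10.8 and 10.51 in Unt and 32.2, 51.7 and 43.3 in D_MgHCF. The groups were far apart in both. Gsr, which regenerates glutathione, fell from 18.6, 19.8 and 19.7 to 8.07, 7.13 and 6.92 FPKM. Hmox1, haem oxygenase, was at 33.2, 39.0 and 40.2 FPKM in Unt and 24.9, 47.6 and 94.8 in D_MgHCF, with replicate 1 below and replicates 2 and 3 above the Unt libraries, and was not called (adjusted p = 0.498). The count of higher NRF2 genes was 14 without D_MgHCF replicate 3, and lower genes numbered 5 without D_MgHCF replicate 1.

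Iron genes bear on the question because MgHCF was made to capture ferrous iron. In this list, 7 of 22 genes rose and 6 fell. These shares were 31.8% and 27.3%, compared with 21.7% and 27.3% over all genes tested, so the falls matched that share. Fth1, the ferritin heavy chain that stores iron, was at 802, 819.5 and 889.8 FPKM in Unt and 1735, 1344 and 1191 in D_MgHCF (log2 fold change 0.75 ± 0.21, adjusted p = 0.0232), and Ftl1, the light chain, which has near-identical copies, was at 209, 251 and 246 in Unt and 438, 309.7 and 363 in D_MgHCF. Ncoa4, which carries ferritin to the lysosome, was at 7.42, 7.40 and 6.23 in Unt and 21.6, 21.7 and 14.4 in D_MgHCF. All D_MgHCF libraries were above Unt in these genes. The calls of Fth1 and Ftl1 were lost without D_MgHCF replicate 2 or any 1 Unt replicate (adjusted p = 0.066 to 0.11) and without any 1 Unt replicate (adjusted p = 0.0796 to 0.122) and with quantile normalization (adjusted p = 0.0701), respectively. With no filter or the filter on FPKM above 0 they were lost as well (adjusted p = 0.243 to 0.299 for Fth1 and 0.0753 to 0.109 for Ftl1). A replicate block ended both calls too (adjusted p = 0.127 for Fth1 and 0.0866 for Ftl1). Tfrc, the transferrin receptor that imports iron, was at 21.6, 25.2 and 22.2 FPKM in Unt and 34.2, 40.5 and 3.87 in D_MgHCF, that is above Unt in replicates 1 and 2 and far below it in replicate 3, and was not called (log2 fold change -0.32, adjusted p = 0.746). Among the lower genes was Steap1 (32.7, 35.6 and 38.1 FPKM in Unt, 6.71, 8.67 and 11.8 in D_MgHCF). Higher iron genes numbered 1 without Unt replicate 1, 2 without Unt replicate 2 and 3 without Unt replicate 3. Of 19 ferroptosis genes, 5 rose, led by Gch1, the source of tetrahydrobiopterin, at 0.986, 0.654 and 0.805 FPKM in Unt and 10.4, 9.53 and 6.34 in D_MgHCF, and by Gclc, of glutathione synthesis, at 11.5, 12.6 and 12.5 in Unt and 43.6, 52.8 and 25.3 in D_MgHCF. The 5 that fell included Slc7a11 and the mitochondrial channel Vdac3 (-1.86), and the lower genes numbered 3 without any 1 Unt replicate. Of 12 magnesium transport genes, 4 rose, led by Cnnm2 (3.89, 4.52 and 4.44 FPKM in Unt, 13.9, 15.9 and 10.7 in D_MgHCF) and the exporter Slc41a1 (11.3, 11.6 and 12.0 in Unt and 39.9, 34.8 and 22.3 in D_MgHCF), and 2 fell, the channel kinase Trpm7 (-1.10) and Nipa1 (-0.91). Higher magnesium genes numbered 2 without any 1 Unt replicate. Of 16 metallothioneins and zinc transporters, 3 rose, led by Slc39a8 (0.96), and 5 fell, led by Slc30a6 (-1.48). The call of Slc39a8 was lost without D_MgHCF replicate 2 or Unt replicate 1 or 3 (adjusted p = 0.0552 to 0.0701), and the lower genes numbered 2 without Unt replicate 3 and 3 without D_MgHCF replicate 2 or Unt replicate 1 or 2, and 5 were higher without D_MgHCF replicate 3.

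Transcripts of the mitochondrial genome were higher in D_MgHCF, where 8 of 13 rose and 0 fell in limma (0 also at an unadjusted p under 0.05). Their summed FPKM was 6351, 7698 and 6592 in Unt and 16122, 14081 and 8892 in D_MgHCF, without overlap (exact permutation test, p = 0.1). The medians of the single libraries were 0.97, 0.96 and 0.24, so replicate 3 moved least. mt-Co1, a cytochrome oxidase subunit with nuclear copies, was at 2497, 3389 and 2755 FPKM in Unt and 8912, 6868 and 4245 in D_MgHCF. Its log2 fold change was 0.32 with quantile normalization in place of 1.16, and its call was lost without D_MgHCF replicate 2 or any 1 Unt replicate (adjusted p = 0.0679 to 0.116) and with quantile normalization (adjusted p = 0.303). It was lost too with no filter (adjusted p = 0.54), with the filter on FPKM above 0 (adjusted p = 0.534) and with a replicate block (adjusted p = 0.129). The count for the list was 1 without D_MgHCF replicate 2 or Unt replicate 1 or 3, 2 without Unt replicate 2 and 4 without D_MgHCF replicate 1. Of 74 nuclear-encoded respiratory chain genes, 11 rose, led by Uqcrh (43.8, 43.1 and 45.3 FPKM in Unt, 138, 132 and 81.6 in D_MgHCF), and 7 fell, led by Ndufv2 (-0.94). The counts of these genes were 3 without D_MgHCF replicate 2 or any 1 Unt replicate, 35 without D_MgHCF replicate 3 and 17 in a fit of all 12 libraries for higher genes and 4 without Unt replicate 2 or 3 for lower genes. Of 76 mitochondrial ribosomal protein genes, 31 fell, led by Mrps18b (-1.41) and Mrpl32 (-1.34), and 6 rose, led by Mrps11 (1.08) and Mrps12 (0.80). Their higher genes numbered 3 without Unt replicate 1 or 3 and 3 with TPM scaling.

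In the lists of glycolysis and cholesterol synthesis, and in those of RNA polymerase II, TGF-beta, actin, ferroptosis and interferon response genes, the shares of genes called lay near or below those over all genes tested. Of 31 genes of glycolysis and hypoxia, 7 fell, among them Ldha (317, 319.99 and 349 FPKM in Unt, 241, 198 and 157 in D_MgHCF), which makes lactate, and 3 rose, among them the oxygen sensor Egln3 (6.91, 5.16 and 5.80 in Unt and 23.0, 24.9 and 9.14 in D_MgHCF). The call of Ldha was lost without D_MgHCF replicate 2 or any 1 Unt replicate (adjusted p = 0.0573 to 0.0741) and that of Egln3 without D_MgHCF replicate 2 (adjusted p = 0.0571), and the lower genes numbered 3 without Unt replicate 1, 4 without Unt replicate 2 or 3 and 11 with TPM scaling. The higher genes numbered 0 without D_MgHCF replicate 2, 1 without Unt replicate 2 or 3, 9 without D_MgHCF replicate 3 and 6 in a fit of all 12 libraries. In cholesterol synthesis, 5 of 25 genes rose and 4 fell, with Tm7sf2 (1.38, 1.92 and 1.87 FPKM in Unt, 18.4, 18.8 and 10.4 in D_MgHCF) and Hsd17b7 (1.86) leading the rises. The counts were 8 without D_MgHCF replicate 3 for higher genes and 0 without Unt replicate 2 or 3, 1 without Unt replicate 1 and 7 without D_MgHCF replicate 3 for lower genes. Of 17 clock genes, 7 fell and 4 rose. The paralogous repressors Nr1d1 and Nr1d2 moved apart, with Nr1d1 at 2.96, 3.24 and 3.40 FPKM in Unt and 7.47, 8.72 and 9.45 in D_MgHCF and Nr1d2 at 10.6, 9.63 and 9.15 in Unt and 3.10, 3.71 and 3.94 in D_MgHCF. The counts of clock genes were 2 without D_MgHCF replicate 2 for higher genes and 4 without Unt replicate 2 for lower genes.

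**Figure D3:**
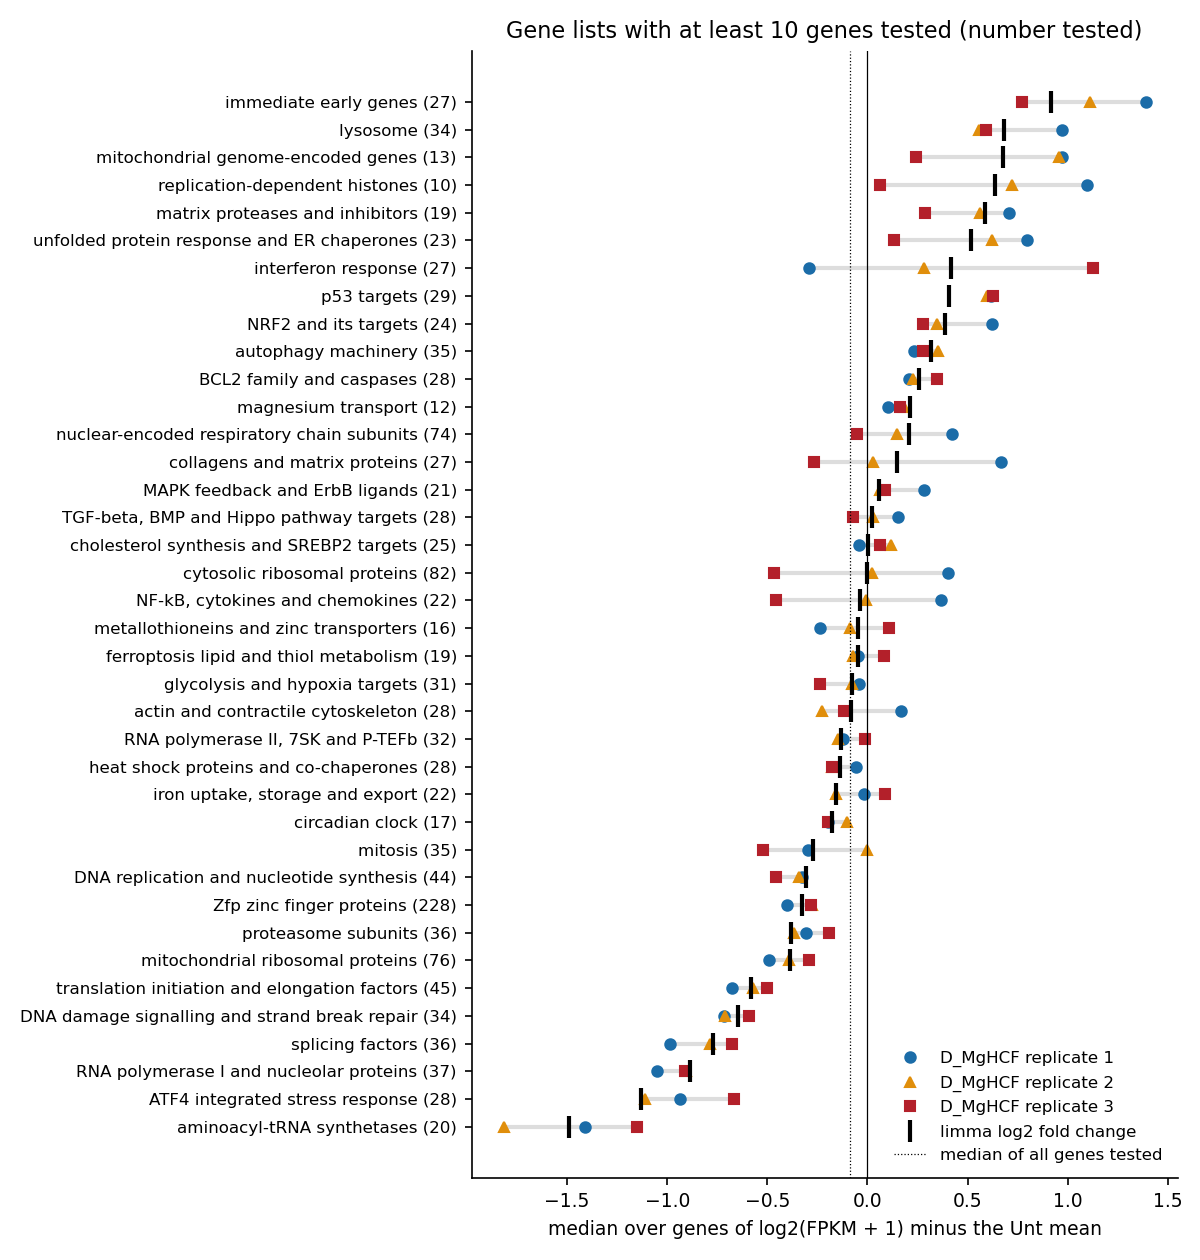
Median over the tested genes of each list of the difference in log2(FPKM + 1) from the Unt mean (horizontal axis), for D_MgHCF replicate 1 (blue circles), 2 (orange triangles) and 3 (red squares), with the median limma log2 fold change as a black bar and the number of genes tested in brackets. The 3 replicates lie together for p53 targets (0.62, 0.60 and 0.63), although single members differ, and on one side of 0 for the synthetases, the ATF4 list, nucleolar proteins and splicing factors, whereas they spread across 0 for interferon response genes and cytosolic ribosomal proteins.

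The label of the cells was checked against marker genes. The myogenic regulators Myod1, Myog, Myf5, Myf6 and Pax7 had no reads in any Unt library and at most 0.0876 FPKM in a D_MgHCF library. Of 20 myoblast and muscle markers 5 were tested, and the most abundant, Mef2d, was at 10.4, 11.5 and 12.3 FPKM in Unt and 7.77, 9.45 and 19.8 in D_MgHCF. Of 16 cardiomyocyte markers the heart factor Gata4 was the one tested, at 9.66, 10.3 and 10.8 FPKM in Unt and 14.2, 17.9 and 25.5 in D_MgHCF, a rise whose call was lost without D_MgHCF replicate 2 or any 1 Unt replicate (adjusted p = 0.0515 to 0.0669) and with TPM scaling (adjusted p = 0.0907). The defining markers of the muscle and heart lists therefore had largely few or no assigned reads in both groups, and Nkx2-5, Tbx5, Myh6 and Tnni3 had no reads in any Unt library. Among genes for cytosolic ribosomal proteins, 2 also had no reads in any of the 6 libraries. Whether genes with 0 reads were silent was not tested. The summed FPKM was 25.0, 26.7 and 27.0 in Unt and 38.2, 36.6 and 37.1 in D_MgHCF for the muscle list and 10.2, 11.1 and 11.5 in Unt and 17.1, 20.1 and 26.5 in D_MgHCF for the heart list. Of the fibroblast markers 6 of 12 were tested, of which Col1a2 fell and S100a4 (1.14) rose, a call lost without D_MgHCF replicate 2 or Unt replicate 1 or 3 (adjusted p = 0.0646 to 0.092). By the mean over the 6 libraries the most abundant fibroblast marker is Col1a1, given above, although Col1a2 was above it in Unt. Thy1 and Tcf21 had no reads in Unt, and the summed FPKM of the list was 79.8, 85.6 and 87.5 in Unt and 97.0, 60.7 and 55.4 in D_MgHCF. Among 11 leukocyte markers, of which Adgre1 and Tyrobp had no reads in Unt, Cd68, a lysosomal protein, was the one tested and rose from 0.885, 1.10 and 1.11 to 4.77, 3.03 and 1.98 FPKM. The summed FPKM of the leukocyte list was 1.22, 1.33 and 1.5050 in Unt and 6.24, 3.73 and 2.29 in D_MgHCF. No endothelial or epithelial marker reached the test, and Kdr and Epcam had no reads in Unt. The most abundant endothelial marker, Esam, was at 0.125, 0.102 and 0.0143 FPKM in Unt and 1.43, 1.32 and 0.128 in D_MgHCF. By the mean over the 6 libraries the most abundant epithelial marker was Krt8, at 0.0203, 0 and 0 in Unt and 0.778, 0.281 and 0.229 in D_MgHCF. In Unt, Krt18 was above it, with a mean of 0.0763 FPKM compared with 0.00677. The summed FPKM was 0.210, 0.206 and 0.0681 in Unt and 2.95, 2.26 and 0.492 in D_MgHCF for the endothelial list and 0.0756, 0.154 and 0.0684 in Unt and 1.95, 1.06 and 0.497 in D_MgHCF for the epithelial list, and the part of other cells in the results was not tested.

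More genes had reads in D_MgHCF, among them genes of other tissues. Coding genes with reads numbered 13947, 13766 and 13839 in Unt and 16356, 16337 and 15780 in D_MgHCF. A total of 819 coding genes had reads in all D_MgHCF libraries and in no Unt library, compared with 16 the other way round. Among all coding genes with no reads in Unt, the highest FPKM in a D_MgHCF library was 7.93, and 1 gene was tested. The olfactory and vomeronasal receptors, 1422 genes, had 229, 205 and 160 reads in the Unt libraries and 872, 691 and 298 in the D_MgHCF libraries (exact permutation test, p = 0.1), and no gene of this list passed the filter. Antisense transcripts were at summed FPKM of 505, 509 and 517 in Unt and 1254, 1048 and 635 in D_MgHCF. The lincRNAs were at 825, 850.01 and 785 in Unt and 1501, 1255 and 913 in D_MgHCF. For both, the D_MgHCF libraries were in the same order as for the receptors (exact permutation test, p = 0.1 each). Replication-dependent histones, whose mRNAs mostly lack poly(A) tails, had 4 higher and 1 lower of 10 tested genes, with Hist2h2be (1.59) leading, 9 higher without D_MgHCF replicate 3, and summed FPKM of 44.5, 42.2 and 44.96 in Unt and 159.5, 107 and 43.6 in D_MgHCF (exact permutation test, p = 0.3). The summed FPKM of snoRNA genes was 386, 399 and 352 in Unt and 277, 269.6 and 207 in D_MgHCF (exact permutation test, p = 0.1). Of 75 snoRNA genes tested, 21 fell and 2 rose. The share that fell, 28%, was near the 27.3% over all genes tested. Replicate 3 was the D_MgHCF library nearest to Unt for the receptor, antisense and lincRNA genes and the farthest for the snoRNA genes. The part of these reads in the rises of low genes was not tested. Of the 654 genes tested with a mean FPKM under 1 in Unt, 540 rose and 0 fell in limma, a share that the filter itself favours since such genes pass it through their D_MgHCF libraries.

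Replicate 3 of D_MgHCF went the same way as replicates 1 and 2 for most genes, but less far. Of the 2557 genes called higher, it was the D_MgHCF library nearest to Unt for 58.5%, and of the 3225 called lower for 60.5%. Its median difference from Unt was 0.80 for the higher genes, compared with 1.05 and 1.02 in replicates 1 and 2, and -0.72 for the lower genes, compared with -0.96 and -0.98. It did not lie beyond the Unt libraries for 18 of the higher and 8 of the lower genes. Since these calls used replicate 3, it was also set against genes called without it. With D_MgHCF replicates 1 and 2 and Unt replicates 1 and 2 alone, 3359 genes were called higher and 4029 lower in limma. In the remaining pair, D_MgHCF replicate 3 minus Unt replicate 3, 84.8% of the former and 87.9% of the latter had the same sign, and 509 and 486 had the opposite sign. The median difference was 0.58 in the held-out pair against 0.93 in the fit for the higher genes, and -0.56 against -0.88 for the lower genes. These shares are not comparable between replicates, because the fits that held replicate 3 called fewer and stronger genes, with median log2 fold changes of the higher genes of 1.16 when replicate 1 and 1.58 when replicate 2 was held out. On those shorter lists, the held-out pair of replicate 1 kept the sign of 99.2% of 1390 higher and 98.3% of 1785 lower genes, and that of replicate 2 kept 100% of 414 and 99.7% of 345. Across the 11810 genes, which are not independent, the held-out difference had a Pearson correlation of 0.837, 0.935 and 0.720 with that of the other libraries for replicates 1, 2 and 3, with slopes of 1.04, 1.10 and 0.58.

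**Figure D4:**
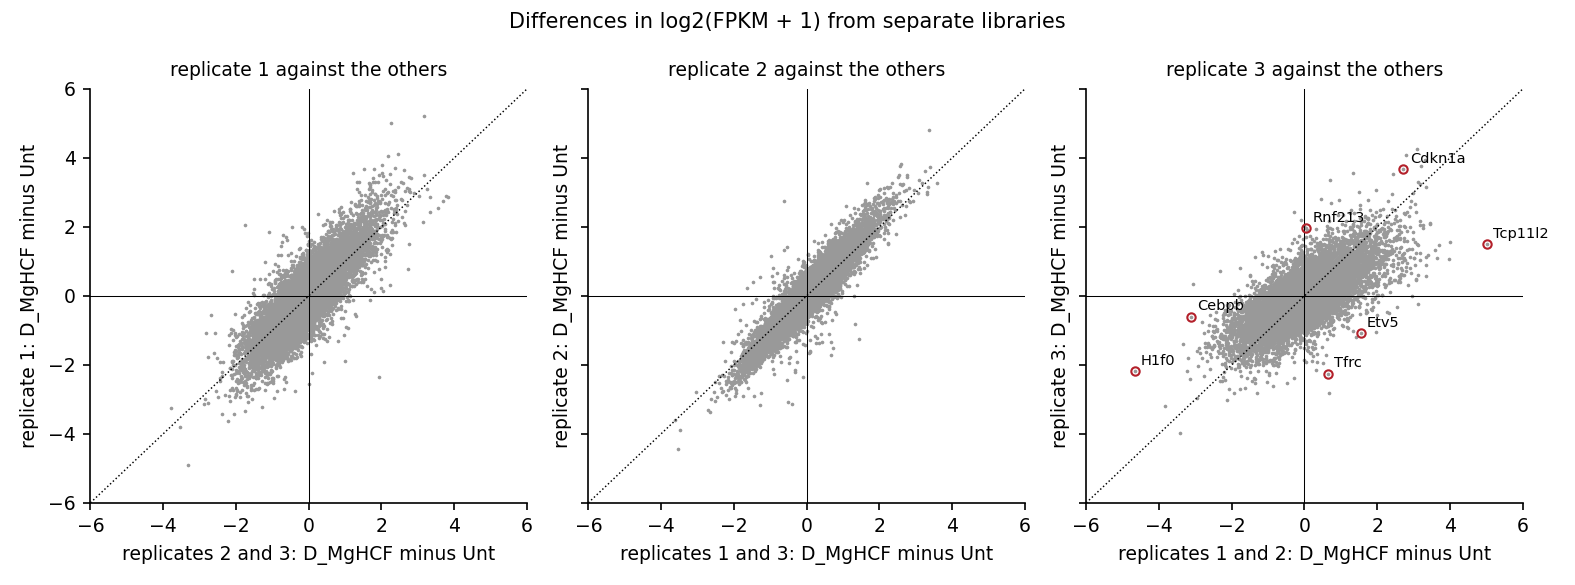
Differences in log2(FPKM + 1) between D_MgHCF and Unt for the 11810 genes tested, with the pair of 1 replicate number on the vertical axis and the mean over the other 2 numbers on the horizontal axis, so that no library is on both axes, and the dotted line marks equal differences. The points of replicates 1 and 2 follow the dotted line (slopes 1.04 and 1.10), whereas those of replicate 3 lie flatter (slope 0.58) and include genes such as Etv5 and Tfrc on opposite sides of 0.

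The genes called in which replicate 3 stood lowest relative to the other two were Tcp11l2, Klf1, Hspa1b, Cirbp and Lbh. Cirbp, a cold-inducible RNA-binding protein, was at 3.86, 3.96 and 4.12 FPKM in Unt and 61.1, 38.2 and 6.70 in D_MgHCF, and Lbh, a cofactor of heart development, at 1.90, 2.06 and 1.95 in Unt and 33.2, 25.7 and 4.50 in D_MgHCF. Both rose, with replicate 3 above Unt but far below the other two, and both calls rested on other libraries too: that of Cirbp was lost without D_MgHCF replicate 1 or 2 or any 1 Unt replicate (adjusted p = 0.0559 to 0.0935) and that of Lbh without D_MgHCF replicate 2 (adjusted p = 0.0619). Replicate 3 stood highest in Cebpb, H1f0, Ifit3b, Chac1 and Fgf21, of which 4 fell less in replicate 3 and 1, Ifit3b, rose more. Genes that were not called but had a replicate 3 far from the other 5 libraries included Rnf213, an interferon-inducible ubiquitin ligase (23.3, 26.9 and 28.6 FPKM in Unt, 21.6, 31.0 and 114 in D_MgHCF), Foxo6 (3.27, 3.53 and 3.60 in Unt and 3.62, 6.82 and 31.0 in D_MgHCF) and, in the other direction, Thbs1, a matrix glycoprotein (40.6, 44.1 and 42.3 in Unt and 77.8, 47.9 and 10.2 in D_MgHCF), and Ogn, a matrix proteoglycan (58.8, 49.8 and 32.8 in Unt and 106, 65.2 and 13.2 in D_MgHCF). Chaf1a, a subunit of the histone chaperone CAF-1, was at 52.3, 55.3 and 60.1 FPKM in Unt and 8.99, 19.7 and 62.7 in D_MgHCF, so that replicate 3 alone was above the Unt libraries. Of the genes named in the text, Asns, Atf4, Bad, Bbc3, Bcl2, Bcl2l1, Ccng1, Chaf1a, Cxcl1, Egr1, Etv5, Fos, Foxo6, Fth1, Ftl1, Hmox1, Ifit3, Mdm2, Ogn, Parp1, Phlda3, Ptgs2, Rnf213, Rpl13a, Sars, Tfrc, Thbs1, Top2a and the markers given as having no reads were chosen after their values were seen, and Gata4, Myc and Vim were also picked in that way besides meeting the naming rule.

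Gene span, the distance from the first to the last base of a gene, went along with the change. Coding genes tested were divided into 5 classes of equal number by span. In the shortest class (up to 8185 bp) 30.0% of genes rose and 19.3% fell, and the median log2 fold change was 0.14. In the longest class (from 65494 bp) 11.4% rose and 38.2% fell, with a median of -0.33. The medians decreased at each step between, through -0.01, -0.11 and -0.20, and had the same order in each D_MgHCF library, with the smallest range in replicate 3 (0.06 to -0.22). The classes differ in level too, with a median FPKM in Unt of 10.8 in the shortest and 5.51 in the longest. The median gene length used for the FPKM differs as well, at 2242 bases in the shortest and 7965 in the longest. The part of that length in the trend was not tested. When the genes were also split into 3 classes of mean level, the lowest level class had a median of 0.52 in the shortest and -0.19 in the longest span class, and the highest level class of 0.01 and -0.49. With TPM scaling, the median of the shortest class was 0.01 and that of the longest -0.44.

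**Figure D5:**
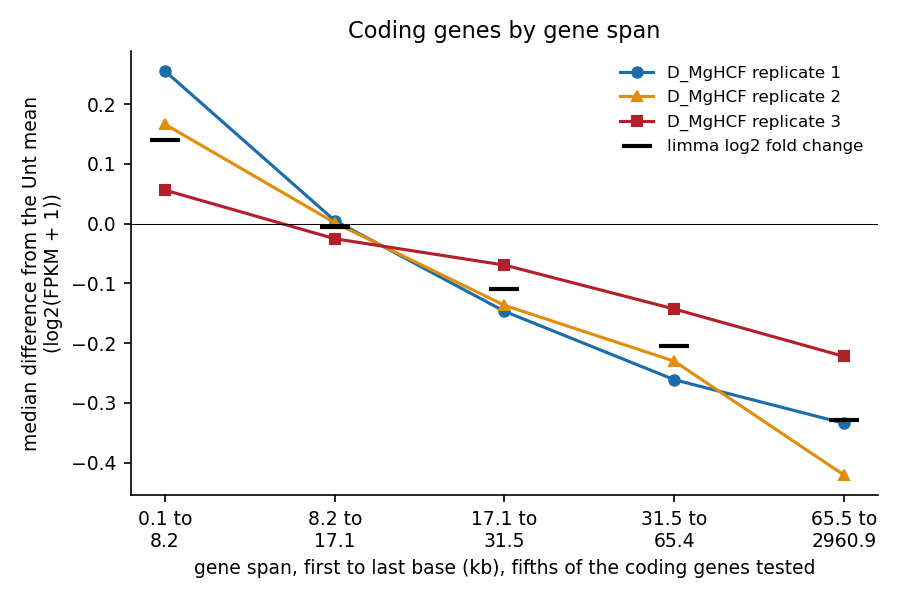
Median difference in log2(FPKM + 1) from the Unt mean (vertical axis) for coding genes in 5 classes of gene span in kb (horizontal axis), for D_MgHCF replicates 1 (blue circles), 2 (orange triangles) and 3 (red squares), with the median limma log2 fold change as black dashes. All 3 lines fall from the shortest to the longest genes, from 0.26 to -0.33 in replicate 1 and from 0.06 to -0.22 in replicate 3.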

How the data were processed

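Poly(A) RNA of the samples was made into libraries and sequenced as 150 bp paired-end reads on a NovaSeq. Per the submitters' processing notes, reads were aligned with HISAT2 2.0.5 and GRCm38 was the build. The counting program, strand setting and normalization are not given in the sources used here. The deposited FPKM values, made by the authors, were whole multiples of 1 read in every library (tolerance 0.01), after a scaling between libraries, and the reads recovered from them gave the depths. limma 3.58.1 in R 4.3.3, with a mean-dependent prior, compared D_MgHCF with Unt on log2(FPKM + 1) over genes with FPKM of at least 1 in 3 of 6 libraries, with Benjamini-Hochberg adjustment over all genes tested. Fold changes on this scale understate those of low genes. Sums over gene classes were compared by a two-sided exact permutation test. The script was tested on simulated data.

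The members and the 45 gene lists were chosen with earlier results of these data known. Named genes are the 12 largest rises and falls among protein-coding genes whose groups did not overlap and whose larger group mean reached 5 FPKM, the 2 largest called changes each way per list, the 5 genes in which replicate 3 stood highest and lowest, and the top marker per cell type, beside those said to be chosen later. Near-identical copies (95% identity over 150 bases, BLAST 2.17.0) concern 35 of 191 such genes, and 72 overlap another gene, where reads could be split or shared. Alternatives were other scalings, filters, pseudocounts, weights, a replicate block and leaving out each library. Some named genes are not reported here.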

Additional observations from a re-analysis of the deposited data

How the results depend on the processing

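D_MgHCF against Unt gave 2557 higher and 3225 lower genes. Requiring at least 2-fold left 1169 and 1258, and gene-by-gene library quality weights, chosen after seeing the data because the default estimate did not converge, gave 4342 and 5388. Leaving out 1 library gave 1645 to 3706 higher and 2048 to 4484 lower genes, with fewest without Unt replicate 2 and most without D_MgHCF replicate 3. With TPM scaling 2018 were higher and 3487 lower, and the median of all genes moved from -0.09 to -0.21. No called gene was called in the opposite direction under the alternatives run. The sample titles number the replicates without saying that equal numbers belong together. Same-numbered libraries had correlations of their deviations of 0.0138, 0.0852 and 0.10, and other pairs had -0.206 to 0.139. With 3 samples per group these values cannot decide whether the numbers pair the samples. A replicate block gave 2452 higher and 3048 lower genes. The block ended the calls of Fth1 (adjusted p = 0.127), Ftl1 (0.0866), mt-Co1 (0.129), Rpl4 (0.105), Qars (0.0506) and Ccne1 (0.0557) among the genes of the text. Without a filter the calls of Ccne1, Cdt1, Cebpb, Cenpe, Cfl1, Chac1, Cirbp, Dnajb9, Dusp4, Dusp5, Egln3, Fgf21, Fth1, Ftl1, Hspa1b, Hspa4, Ifit3b, Klf1, Lbh, Ldha, Lif, Myc, Nfkbie, Orc1, Rpl4, S100a4, Slc39a8, Top2a, Xaf1 and mt-Co1 were lost (adjusted p = 0.0522 to 0.54). Among the gene lists with at least 3 genes called in a direction, dropping the filter also moved the counts of higher genes from 8 to 5 for MAPK feedback, 14 to 9 for autophagy, 8 to 5 for heat shock proteins, 7 to 3 for iron, 4 to 2 for magnesium transport, 11 to 7 for respiratory chain subunits, 8 to 0 for mitochondrially encoded genes, 4 to 2 for actin and 3 to 1 for glycolysis. It moved those of lower genes from 19 to 9 for ATF4 targets, 5 to 2 for MAPK feedback, 5 to 3 for autophagy, 8 to 5 for heat shock proteins, 8 to 5 for RNA polymerase II, 7 to 4 for glycolysis, 5 to 3 for metallothioneins and zinc transporters, 5 to 3 for ferroptosis, and 3 to 1 each for cytosolic ribosomal proteins and the unfolded protein response. Requiring an FPKM of at least 1 in all 6 libraries, which leaves fewer genes tested, gave 45 in place of 92 lower Zfp genes and 0 in place of 4 higher histone genes, and the filter on FPKM above 0 gave 7 higher histone genes and 2 in place of 8 higher mitochondrially encoded genes. Of 165 named genes that passed the test, 114 kept their call under every alternative that tested them and 123 under all but leaving out a library. The filter on FPKM of at least 1 in all 6 libraries tested 139 of these 165 genes. The voom fit with TMM factors was not run, and voom with median-ratio factors, also chosen after seeing the data, gave 2866 and 2845. The wide D_MgHCF group and 3 samples per group limit which small changes could be called. In the simulated data 34 unchanged genes also passed, so some calls here may be false.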
